A study of Mus musculus with 4 samples.

Results

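The LIN28, HMGA and IGF2BP developmental timing network was followed in 4 neural stem cell (NSC) lines through 9 of its genes, Lin28a, Lin28b, Trim71, Hmga1, Hmga2, Igf2bp1, Igf2bp2, Igf2bp3 and Nr6a1. They were taken by name, 9 of the 17419 genes listed in at least 1 of the 4 normalized expression tables. The lines were derived from mouse epiblast stem cells of 129 origin, which model the epithelium of the early postimplantation embryo, and each was profiled as 1 single-cell RNA library (BD Rhapsody, a microwell system that tags the transcripts of each cell). All cultures received EGF and FGF2, both at 10 ng/ml. The lines XN4 and XN1 were made with 10 µM XAV939, a Wnt antagonist that inhibits tankyrase, bought from supplier B for XN4 and from supplier A for XN1. KN1 received no Wnt compound, and CN4 received 2 µM CHIR99021, a Wnt agonist that inhibits the kinase GSK3. The study describes crystalline precipitates in the medium with the XAV939 of supplier A, and the lines also differed in the substrate that suited their growth. XN1 and KN1 came from 1 derivation experiment, and XN4 and CN4 from another run by a different experimenter, so only KN1 against XN1 and CN4 against XN4 compare lines of the same experiment. With 1 library a line there is no replicate check and no test between lines, so line, library, Wnt compound and, between experiments, derivation experiment cannot be told apart. Intervals below are 95% exact Poisson intervals for reads and 95% Clopper-Pearson intervals for shares of cells, and they cover counting error only. The tables count reads and not molecules, and reads of 1 molecule are not independent. The Poisson intervals of reads are thus too narrow, and levels that lie beyond them are descriptions.

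LIN28A and LIN28B are RNA-binding proteins of early embryonic cells that block the maturation of the let-7 microRNAs, and let-7 in turn represses messenger RNAs of this network, those of Lin28 included. HMGA proteins bend AT-rich DNA, and HMGA2 is known for sustaining self-renewal of fetal neural stem cells and declining with age. The IGF2BP proteins bind and stabilise messenger RNAs in fetal tissue, TRIM71 is an RNA-binding ubiquitin ligase that delays differentiation, and NR6A1 is an orphan nuclear receptor that silences pluripotency genes and sets the number of trunk segments.

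A match to the let-7 seed was shared by all 9 genes, so mature let-7 sequences are shown first. Capitals mark the seed, bases 2 to 8, which pairs with the target. The sequences are from RefSeq (GRCm38.p6). Of 12 let-7 entries in the table, 11 under 9 names carry the seed GAGGUAG, and 3 of them are printed here to show that the family shares the seed and varies behind it.
mmu-let-7a-5p: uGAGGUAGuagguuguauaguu
mmu-let-7e-5p: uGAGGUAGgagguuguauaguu
mmu-let-7i-5p: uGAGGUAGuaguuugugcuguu

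The letters CTACCTC, the reverse complement of that seed, were searched on the transcript strand of the longest annotated 3′ UTR of each protein-coding gene in GENCODE M21 (GRCm38). All 9 genes held them at least once, against 9.02% of 21005 3′ UTRs and 20.0% of the 5372 that were at least 2000 bases long. Nr6a1 held 8 matches in 4453 bases. Lin28b, Trim71, Hmga2 and Igf2bp1 held 4 each, in 4445, 5512, 3014 and 6337 bases. Lin28a held 2 in 2775 bases, and Hmga1, Igf2bp2 and Igf2bp3 held 1 each, in 1183, 1784 and 2119 bases. Among 3′ UTRs within 20% of the same length, 0.274% held at least as many matches as Lin28b, 0.149% as many as Hmga2 and 0.0916% as many as Nr6a1, whereas 8.13% held at least the single match of Hmga1, 12.4% that of Igf2bp2 and 13.6% that of Igf2bp3. The 9 genes were taken by name as a network that let-7 is known to repress. Matches in all of them were thus in large part set by that choice. A match of letters describes the sequence. Mature let-7 was not measured in these libraries. The first match that is followed by A, or for Hmga1 the only match, is printed for each gene with the match in capitals, to show where the shared letters lie.
Lin28a, chr4:134005189-134005210, minus strand: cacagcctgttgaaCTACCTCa
Lin28b, chr10:45381022-45381043, minus strand: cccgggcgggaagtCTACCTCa
Trim71, chr9:114512472-114512493, minus strand: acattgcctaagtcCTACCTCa
Hmga1, chr17:27563278-27563299, plus strand: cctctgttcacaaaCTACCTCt
Hmga2, chr10:120364224-120364245, minus strand: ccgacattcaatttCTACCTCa
Igf2bp1, chr11:95961778-95961799, minus strand: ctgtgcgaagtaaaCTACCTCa
Igf2bp2, chr16:22059473-22059494, minus strand: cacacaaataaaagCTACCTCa
Igf2bp3, chr6:49086787-49086808, minus strand: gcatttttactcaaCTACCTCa
Nr6a1, chr2:38727449-38727470, minus strand: gttgacaaagacaaCTACCTCa

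The normalized tables hold 3927 cells of XN4, 3905 of XN1, 3975 of KN1 and 3448 of CN4, with 19271688 to 41539513 reads a line, and they list 8, 6, 7 and 8 of the 9 genes, respectively. Tables of all reads per cell were used for XN4 (8741 cells), XN1 (14452 cells) and CN4 (18157 cells), and all 9 genes are in each of them. Any 2 normalized tables shared 14 to 21 cell barcodes, and any 2 tables of all reads shared 139 to 320. KN1 and XN4 stood apart from the other libraries. KN1 had a median of 833 genes a cell against 2257 to 2824 in the other lines, at 6.99 reads per captured gene against 2.06 to 3.18, and 3.20% of its reads came from the nuclear RNA Malat1 against 0.328% to 1.42%. In its library XN4 went against its NSC label. Sox2, a neural stem cell marker, had a read in 0.56% of XN4 cells (62.2%, 13.9% and 83.9% in XN1, KN1 and CN4). Fabp7 was listed in every line but XN4, and the collagen gene Col3a1 had a read in 97.8% of XN4 cells. Sox1 was not listed in XN4 or XN1 and had a read in 0.377% of KN1 cells, so its absence does not set XN4 apart. The study, however, reports Sox2 expression in its NSC lines by microarray. It also reports neurons, oligodendrocytes and astrocytes from XN4 in differentiation cultures. The 8 mesenchymal markers summed to 8429 RPM (reads per 1000000 reads) in XN4 and to 7.66 to 198 in the other lines, the 8 neural stem cell markers to 1441 in XN4 and 2017 to 8144 elsewhere. Of the XN4 sum, 1325 came from Vim, which mesenchymal cells also express, and without Vim the neural stem cell markers summed to 116 RPM there and to 1529 (KN1) to 5879 (CN4) in the other lines. Epiblast markers summed to 2.44 to 10.4 RPM, with Nanog, Dppa4 and Tdgf1 not listed in any line, and neuron markers to 1.76 to 46.0. The part of these differences in the values below was not tested.

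The level of a gene is given as its RPM in the line's table, and its capture as the share of cells with at least 1 read. Where both kinds of table list a member, its RPM was 1.14 to 1.53 times higher in the normalized table (22 values), so levels are ranked only within a kind of table. Dropout means that a cell without a read may still hold the transcript. No class of cells known to lack these genes is labelled, so a background from free RNA could not be set. As a rough guide, the pluripotency gene Pou5f1 had a read in 0.232% to 0.306% of cells in the normalized tables of the 3 lines that list it. Shares at or below that level are not read as expression here. The guide is no measured background. Normalized tables leave out genes found in very few cells, and the study reports Pou5f1 in the starting epiblast stem cells. The tables of all reads hold more cells, at other depths. KN1 had the highest RPM of each of the 5 genes listed in all 4 normalized tables (Lin28b, Hmga2, Igf2bp2, Igf2bp3 and Nr6a1), and XN1 had the lowest of all 5, although its Lin28b interval overlapped those of XN4 and CN4. In the 3 tables of all reads, which leave KN1 out, XN1 was lowest beyond the counting intervals for 8 of 9 genes, Lin28a being the exception. CN4 was highest beyond them for 4 (Hmga2, Igf2bp1, Igf2bp2 and Igf2bp3) and XN4 for 2 (Trim71 and Nr6a1), while the CN4 and XN4 intervals overlapped for Lin28a, Lin28b and Hmga1. The XN1 shares of Lin28b (0.249%), Trim71 (0.145%) and Igf2bp1 (0.042%) in these tables lay within or below the Pou5f1 range. The guide was not set in these tables, so for these genes the lowest rank of XN1 is only that of a value within or below it.

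**Figure D1:**
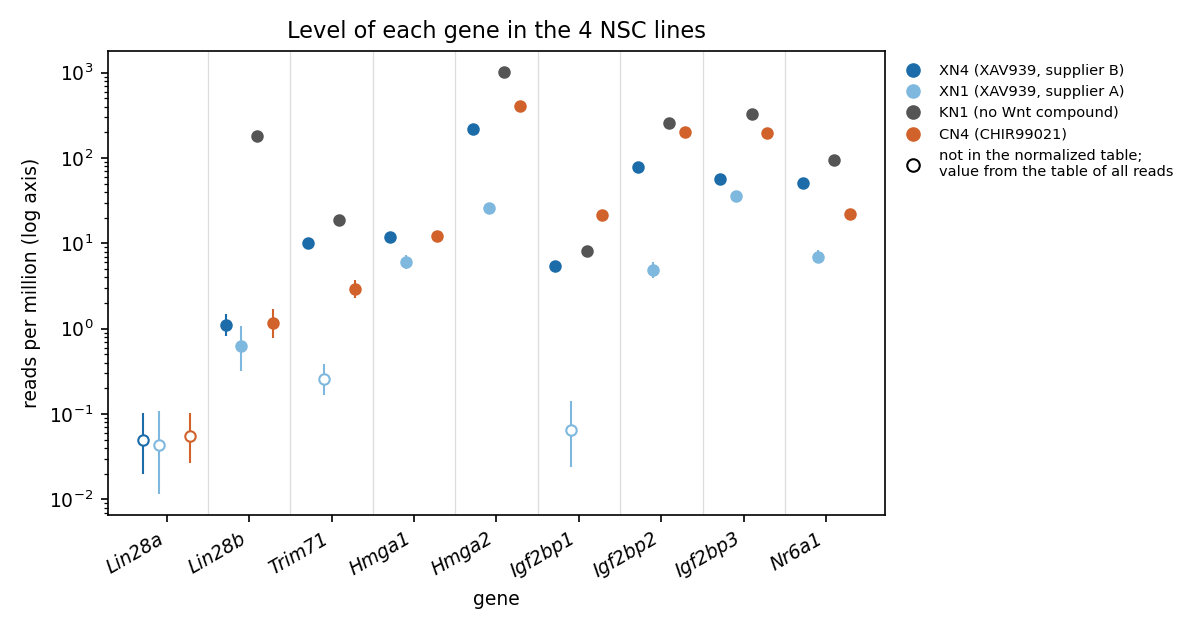
RPM of each gene (vertical log axis) in the 4 NSC lines, 1 library each, with 95% Poisson intervals that cover counting error only; open symbols are values from the table of all reads where the normalized table does not list the gene, and RPM from the 2 kinds of table are not on the same scale. Lin28b stands at 182 RPM in KN1 and at 0.62 to 1.18 in the other lines, and Hmga2 spans 25.6 (XN1) to 1011 (KN1).

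Among the let-7 antagonists, Lin28a (chr4:134003330-134018841, minus strand) was below the Pou5f1 level. It had 7 reads in 7 of 8741 XN4 cells, 4 reads in 4 of 14452 XN1 cells and 10 reads in 9 of 18157 CN4 cells, or 0.043 to 0.055 RPM, and no normalized table listed it. The upper bounds of its capture were 0.165% in XN4, 0.0709% in XN1 and 0.0941% in CN4, and the intervals of the 3 lines overlapped.

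Lin28b (chr10:45376620-45486395, minus strand) set KN1 apart. It had 5012 reads in KN1, 182 RPM (interval 177 to 187), in 648 cells, 16.3% (15.2% to 17.5%). It had 46 reads in 34 cells of XN4, 12 reads in 12 cells of XN1 and 27 reads in 23 cells of CN4, which is 1.11, 0.62 and 1.18 RPM and 0.87%, 0.31% and 0.67% of cells. The RPM intervals of these 3 lines all overlapped each other, and in share of cells CN4 overlapped both XN4 and XN1. The XN1 share lay close to the top of the Pou5f1 range, and within it in the table of all reads (0.249%). By this rough guide Lin28b in XN1 is not read as expression, and a ratio over XN1 is one over a value near the guide. On the log2(RPM + 1) scale the KN1 value was 6.44 above XN4, 6.82 above XN1 and 6.39 above CN4. In KN1 a cell that captured Lin28b held 7.73 reads of it, and the most in a cell was 66, against 1.00 to 1.35 and at most 7 elsewhere. The KN1 mean is near the 6.99 reads per captured gene of its library, so it is not particular to Lin28b.

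Trim71 (chr9:114507133-114564369, minus strand) had 421 reads in XN4 (10.1 RPM, 5.73% of cells), 523 in KN1 (17.4 to 20.7 RPM, 3.02% of cells) and 67 in CN4 (2.92 RPM, 1.48% of cells). The normalized table of XN1 did not list it, and the table of all reads had 24 reads in 21 of the 14452 XN1 cells, 0.258 RPM. KN1 thus led in RPM and XN4 in cells among the normalized tables. The XN1 share, 0.145% of cells, lies below the Pou5f1 level and is not read as expression. With each cell thinned to 3200 reads, the expected capture was 2.65% in XN4 and 2.36% in KN1, so the lead of XN4 in cells was small at equal reads.

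Of the HMGA genes, Hmga1 (chr17:27556497-27563674, plus strand) was lowest in XN1 among the lines that list it. It had 499 reads in XN4 (11.0 to 13.1 RPM), 117 in XN1 (5.02 to 7.28 RPM) and 280 in CN4 (10.8 to 13.7 RPM), in 4.00%, 2.51% and 6.70% of cells, and the intervals of XN4 and CN4 overlapped in RPM. The CN4 level was 12.2 RPM and that of XN1 6.07. The KN1 table did not list Hmga1, although it listed the near-identical gene Hmga1b (chr11:120762794-120764419, plus strand) in 11 cells. Reads that match both copies could have been counted to either one, so the Hmga1 values are uncertain.

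Hmga2 (chr10:120361275-120476469, minus strand) was measured in every line. KN1 held 27857 reads of it, CN4 9347, XN4 9148 and XN1 494. Taking XN4, XN1, KN1 and CN4 in turn, this was 220 (216 to 225), 25.6 (23.4 to 28.0), 1011 (999 to 1023) and 407 (399 to 416) RPM. It was captured in 19.6%, 7.63%, 54.6% and 67.9% of cells, respectively. The 4 lines did not overlap on either scale, but KN1 and CN4 changed places between them. A KN1 cell that captured Hmga2 held 12.8 reads of it and a CN4 cell 3.99. The libraries also differed in this for genes in general, with 6.99 reads per captured gene in KN1 and 2.32 in CN4.

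XN4 resembled KN1 in Hmga2 reads per positive cell and not in the number of cells. The XN4 library, however, had 3.18 reads per captured gene against 6.99 in KN1. Positive XN4 cells held 11.9 Hmga2 reads on average and up to 211, and the 1% of XN4 cells with the most Hmga2 reads held 43.1% of them. The same share was 9.72% in KN1, 8.17% in CN4 and 32.4% in XN1. For Hmga1 that 1% held 62.3% of reads in XN4, from 157 positive cells in all, 50.4% in XN1 and 26.4% in CN4, and a positive cell held 3.18, 1.19 and 1.21 reads.

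The IGF2BP genes followed different orders. Igf2bp1 (chr11:95957163-96005940, minus strand) was highest in CN4, with 493 reads (21.5 RPM, 8.99% of cells), against 226 reads in XN4 (5.44 RPM, 2.34%) and 222 in KN1 (8.05 RPM, 1.18%). XN1 had 6 Igf2bp1 reads in 6 of 14452 cells of the table of all reads, 0.064 RPM, close to the Lin28a level in the same cells.

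Igf2bp2 (chr16:22059009-22163299, minus strand) had 7156 reads in KN1, 4643 in CN4, 3290 in XN4 and 94 in XN1. Over XN4, XN1, KN1 and CN4 in turn, this was 79.2 (76.5 to 82.0), 4.88 (3.94 to 5.97), 260 (254 to 266) and 202 (197 to 208) RPM. It was captured in 18.0%, 1.95%, 21.9% and 59.6% of cells. Igf2bp3 (chr6:49085223-49214957, minus strand) had, in the same order, 2357, 687, 9104 and 4539 reads, or 56.7, 35.6, 330 and 198 RPM, in 16.4%, 12.5% (11.5% to 13.6%), 23.9% and 56.9% of cells. Both genes had the same order of lines, with KN1 first in RPM and CN4 first in share of cells, and no intervals overlapped.

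Nr6a1 was captured in more cells of XN4 than of any other line. It had 2136 reads in 733 XN4 cells (51.4 RPM, 18.7%), 135 in 109 XN1 cells (7.01 RPM, 2.79%), 2598 in 424 KN1 cells (94.3 RPM, 10.7%) and 508 in 313 CN4 cells (22.1 RPM, 9.08%). The shares of KN1 and CN4 overlapped within their intervals. Nr6a1 lies at chr2:38723370-38927688 (minus strand), and the antisense gene Nr6a1os lies inside it at chr2:38823257-38852370. The sources used here do not say whether counting used strand, and the reads of both genes may be mixed.

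**Figure D2:**
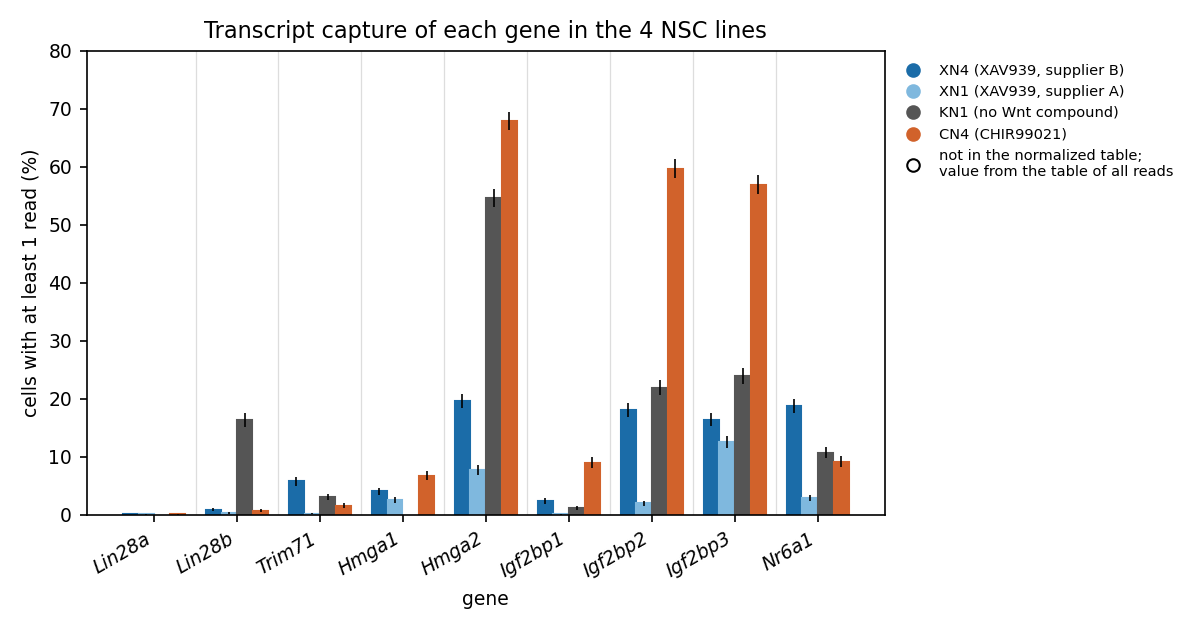
Share of cells with at least 1 read (vertical axis, percent, from 0) for each gene in the 4 NSC lines, 1 library each, with 95% Clopper-Pearson intervals; open bars are from the table of all reads. CN4 has the highest bars for Hmga2 (67.9%), Igf2bp2 (59.6%) and Igf2bp3 (56.9%), KN1 for Lin28b (16.3%) and XN4 for Nr6a1 (18.7%).

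When each cell was thinned to 3200 reads, leaving out 543, 776, 579 and 290 shallower cells of XN4, XN1, KN1 and CN4, the expected capture of Hmga2 was 13.2%, 5.93%, 52.3% and 54.9%. That of Igf2bp2 was 12.2%, 1.36%, 20.4% and 41.7%, and that of Lin28b was 0.277%, 0.237%, 13.9% and 0.350%. Thinning equalises reads and not molecules. It brought Hmga2 in KN1 and CN4 within 3 percentage points of each other and left CN4 ahead for Igf2bp2. The XN4 and XN1 shares came close for Igf2bp3 (10.2% and 9.51%) and for Hmga1 (1.80% and 1.75%). Nr6a1 stood at 11.0%, 1.75%, 8.80% and 5.42% in XN4, XN1, KN1 and CN4 after thinning.

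More than 1 member was often captured in a cell of CN4. At least 1 of the listed genes had a read in 92.3% of CN4 cells, 76.7% of KN1 cells, 51.6% of XN4 cells and 24.3% of XN1 cells. At least 3 had a read in 38.4%, 12.6%, 8.81% and 0.256%, respectively. The number of listed genes differs between lines (8, 7, 8 and 6), and these shares are not corrected for depth.

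Fold differences between lines were set beside those of all genes with at least 10 RPM in either line. A gene was counted as different at 2-fold on the log2(RPM + 1) scale, with no test. A member under 10 RPM in 1 of the lines enters a comparison only through the line where it is higher, which in large part sets its direction, so such members are named and the counts are descriptions. XN1 and XN4 both received XAV939 and differ in its supplier. Of the 5 members that could be compared, 3 were at least 2-fold lower in XN1, against 15.3% of 10347 genes, and none was higher, against 12.7%. These were Igf2bp2 (log2 difference -3.77), Hmga2 (-3.05) and Nr6a1 (-2.71). Igf2bp3 (-0.66) and Hmga1 (-0.88) stayed within 2-fold, although Hmga1 passed in cells at or below the median Malat1 share (-1.05). Igf2bp2, Nr6a1 and Hmga1 entered only through XN4. The median over all genes was -0.09.

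CN4 against XN1 sets the Wnt agonist against the Wnt antagonist of supplier A, and the fewest genes differed here, with 6.49% of 10081 genes at least 2-fold higher in CN4 and 7.78% lower. Of the 5 members compared, 4 were higher in CN4 and none lower: Igf2bp2 (log2 difference 5.11), Hmga2 (3.94), Igf2bp3 (2.44) and Nr6a1 (1.53), with Hmga1 at 0.90. With a pseudocount of 10 Nr6a1 fell inside 2-fold (0.92). Igf2bp2, Nr6a1 and Hmga1, all under 10 RPM in XN1, entered only through CN4. The median over all genes was 0.11. Igf2bp1 and Trim71 could not be compared in the normalized tables, and in the tables of all reads they stood at 17.5 and 2.15 RPM in CN4 against 0.064 and 0.258 in XN1.

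KN1 against XN1, no Wnt compound against the antagonist, gave 5 of 5 members higher in KN1, where 22.9% of 10404 genes were higher and 22.8% lower. The log2 differences were 6.82 for Lin28b, 5.47 for Igf2bp2, 5.25 for Hmga2, 3.57 for Nr6a1 and 3.18 for Igf2bp3. Lin28b, Igf2bp2 and Nr6a1 entered only through KN1. KN1 against XN4 gave 4 of 6 higher and none lower, where 19.8% of 10453 genes were higher and 22.1% lower. The members past 2-fold were Lin28b (6.44), Igf2bp3 (2.52), Hmga2 (2.19) and Igf2bp2 (1.70), and Nr6a1 (0.86) and Trim71 (0.84) were not. Lin28b entered only through KN1. In cells at or below the median Malat1 share Nr6a1 (1.39) and Trim71 (1.24) passed, as did Nr6a1 with the reads of Nr6a1os added (1.75). Trim71 stood at 8.95 RPM in those XN4 cells, so it entered only through KN1. The comparisons share libraries, so their counts are not separate observations.

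CN4 against XN4 divided the members. Igf2bp1 (1.80), Igf2bp3 (1.78) and Igf2bp2 (1.34) were at least 2-fold higher in CN4, where 13.8% of 10415 genes were. Trim71 (-1.51) and Nr6a1 (-1.18) were lower, where 15.6% of genes were. Hmga2 (0.88) and Hmga1 (0.02) stayed within 2-fold. Igf2bp1 entered only through CN4 and Trim71 only through XN4. With a pseudocount of 10 neither Trim71 (-0.64) nor Nr6a1 (-0.93) passed. The Nr6a1 difference also fell inside 2-fold, at -0.57, when reads of Nr6a1os were added, and at -0.96 in cells at or below the median Malat1 share, and that of Hmga2 went outside it, at 1.42, when the level was averaged over cells.

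KN1 against CN4, no Wnt compound against the agonist, gave 4 of 7 members higher in KN1 and 1 lower, where 19.3% of 10353 genes were higher and 21.5% lower. Lin28b (6.39), Trim71 (2.35), Nr6a1 (2.04) and Hmga2 (1.31) were higher, Igf2bp1 (-1.31) was lower, and Igf2bp3 (0.74) and Igf2bp2 (0.36) were within 2-fold. Lin28b and Trim71 entered only through KN1 and Igf2bp1 only through CN4. Igf2bp1 fell inside 2-fold with a pseudocount of 10 (-0.80) and without the cells that had an Mki67 read (-0.75).

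Long genes were generally higher in KN1, and several members are long. Among genes tested between KN1 and CN4, the longest of 10 span groups (from 158 kb) had a median log2 difference of 1.65, with 70.3% of them at least 2-fold higher in KN1 (70.4% against XN1 and 60.4% against XN4). The shortest group (up to 5.72 kb) had a median of -0.64. Intronic reads were counted in the tables of all reads, and exonic and intronic reads are not separated in them. Nr6a1 spans 204 kb, Igf2bp3 130 kb, Hmga2 115 kb, Lin28b 110 kb and Igf2bp2 104 kb, while Trim71 spans 57.2 kb, Igf2bp1 48.8 kb, Lin28a 15.5 kb and Hmga1 7.18 kb.

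Measured from the median of genes of like span, the KN1 excess over CN4 was 5.79 for Lin28b and 2.48 for Trim71, both still past 2-fold, where 17.0% of all genes were higher and 15.9% lower. It was 0.71 for Hmga2, 0.39 for Nr6a1, 0.14 for Igf2bp3 and -0.24 for Igf2bp2, all within 2-fold, and Igf2bp1 stayed lower at -1.19. The same scaling left KN1 higher than XN1 for 5 of 5 members, by 1.82 (Nr6a1) to 6.17 (Lin28b), where 19.9% of all genes were higher. It left KN1 higher than XN4 for the same 4 genes, by 1.22 (Igf2bp2) to 5.95 (Lin28b), where 19.8% of all genes were higher. Nr6a1 between KN1 and XN4 moved from 0.86 to -0.63. Between CN4 and XN4, Nr6a1 fell inside 2-fold (-0.93) and Hmga2 went outside it (1.05), where 13.8% of all genes were higher and 15.3% lower. Between CN4 and XN1, where the medians of span groups were near 0 (0.0046 and 0.089 in the shortest and longest group), the 4 differences were 4.98 (Igf2bp2), 3.81 (Hmga2), 2.31 (Igf2bp3) and 1.44 (Nr6a1).

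**Figure D3:**
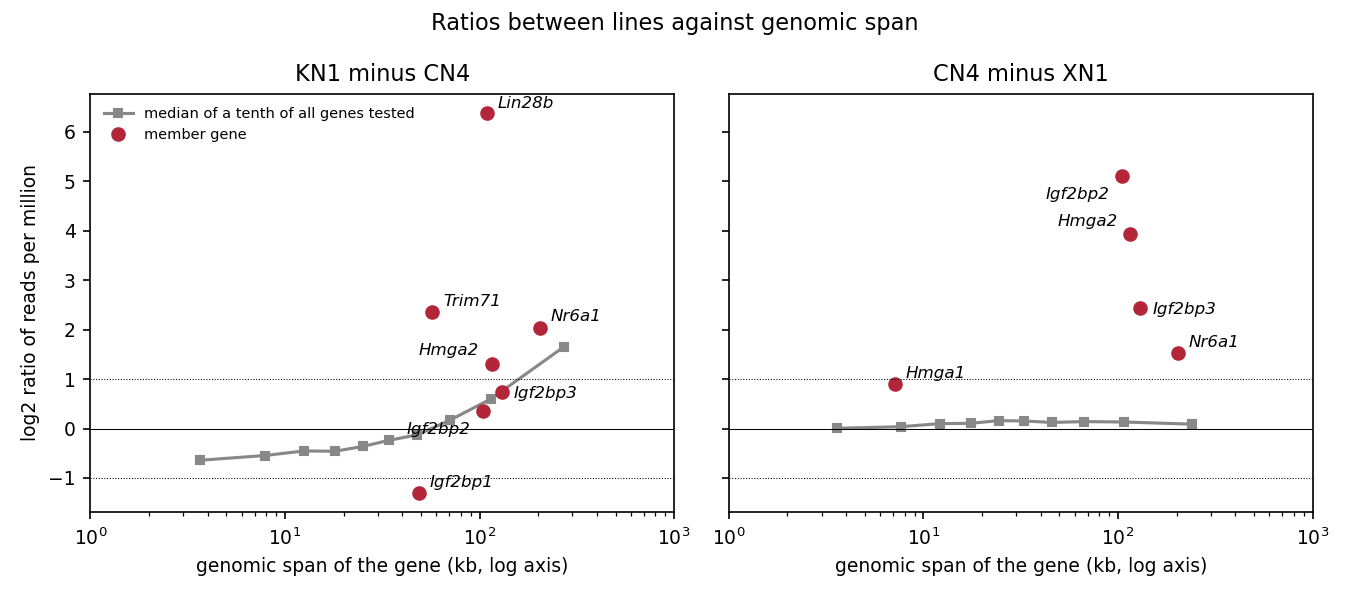
Log2 ratio of RPM (vertical axis) against genomic span (horizontal log axis, kb) for KN1 minus CN4 and CN4 minus XN1; grey squares are medians of 10 groups of all genes tested, ordered by span, red points are the member genes, and dotted lines mark 2-fold. The grey line climbs with span in KN1 minus CN4, up to 1.65, where Lin28b (6.39) and Trim71 (2.35) stand far above it and Hmga2 (1.31) near it, and it is flat in CN4 minus XN1.

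Cells of KN1 with less and with more Malat1 were also set side by side. Among the KN1 cells at or below the median Malat1 share, where Malat1 took 1.40% of reads, Lin28b stood at 179 RPM and Hmga2 at 950. In the other cells, with 5.01% Malat1, they stood at 185 and 1071. Igf2bp2 stood at 239 and 280, Igf2bp3 at 300.0 and 361 and Nr6a1 at 93.4 and 95.2. These 5 genes differed by 0.03 to 0.26 on the log2(RPM + 1) scale, where the median over all genes was -0.20. The rarer genes moved more, Igf2bp1 from 5.29 to 10.8 (0.91) and Trim71 from 22.5 to 15.4 (-0.52).

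In XN4, Nr6a1 stood at 35.1 RPM in cells with less Malat1 and 84.5 in those with more, a log2 difference of 1.25 (0.61 in CN4 and 0.32 in XN1). Hmga1 went the other way, from 15.5 to 4.88 in XN4, a log2 difference of -1.49 (-0.43 in CN4 and -0.38 in XN1). The directions were thus shared by the 3 lines that list both genes. No interval was set for these values, and those of XN1 rest on 117 Hmga1 and 135 Nr6a1 reads in all.

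Members were then compared between cells with and without a read of Mki67, a gene transcribed in dividing cells. Such cells were 1039 of 3927 in XN4, 1032 of 3905 in XN1, 1221 of 3975 in KN1 and 1927 of 3448 in CN4, and they were deeper, with medians of 5308 to 12009 reads against 4474 to 6646. No member with at least 10 RPM in either class differed 2-fold in any line, while of all genes 4.43%, 5.23%, 1.47% and 3.05% were higher with Mki67 in XN4, XN1, KN1 and CN4 and 1.45%, 1.36%, 0.949% and 0.751% were lower.

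In XN4, Igf2bp2 had 93.9 RPM in cells without Mki67 and 51.7 in cells with it (log2 difference -0.85), Nr6a1 had 60.2 and 35.0 (-0.76), and Hmga2 247 and 170 (-0.54). The median over all genes was -0.05. With Top2a in place of Mki67, and in the table of all reads with Mki67, the XN4 differences were -0.63 and -0.89 for Igf2bp2 and -0.52 and -0.73 for Nr6a1, but only -0.20 and -0.13 for Hmga2. The capture of Igf2bp2 in XN4 was also lower with Mki67, 13.1% against 19.8%, although those cells were deeper. In KN1 the same values for Hmga2 were 1022 and 994 (-0.04), and for Igf2bp2 261 and 258 (-0.01).

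Igf2bp3 was higher with Mki67 in XN1, 44.9 against 31.8 RPM (0.49), in 16.9% against 11.0% of cells. Nr6a1 was higher with Mki67 in KN1, 111 against 83.7 (0.40), and Igf2bp1 in CN4, 24.3 against 17.1 (0.48). With Top2a, Igf2bp3 in XN1 gave 0.53 and Nr6a1 in KN1 0.31, whereas Igf2bp1 in CN4 gave 0.06, and 0.16 in the table of all reads with Mki67. These differences between lines were not tested.

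**Figure D4:**
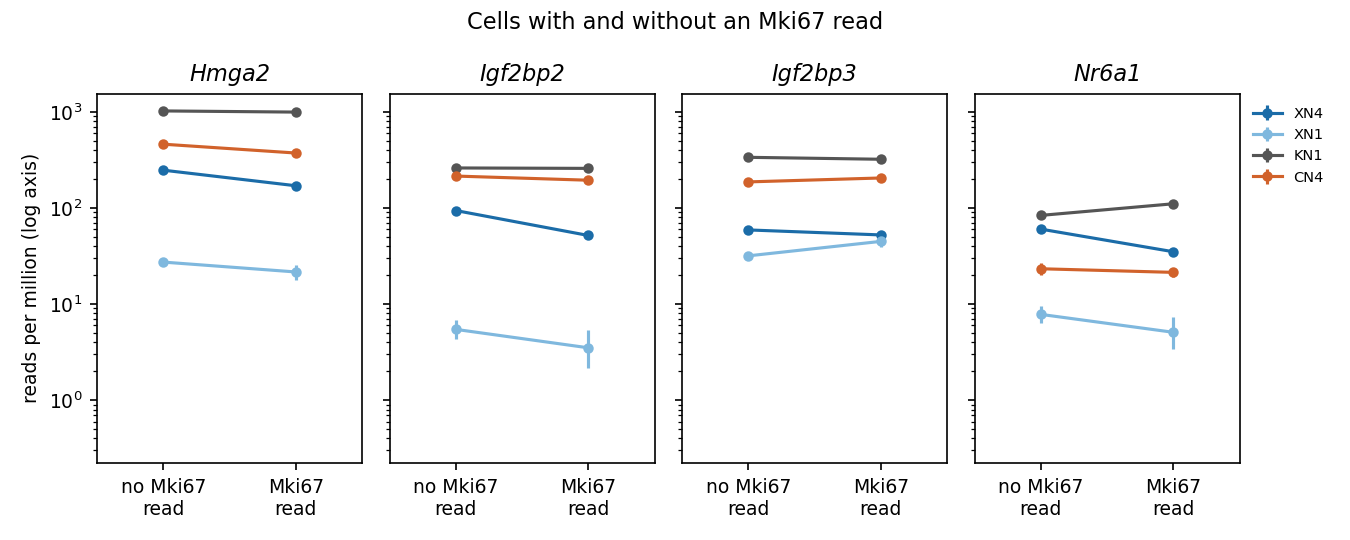
RPM (vertical log axis) of Hmga2, Igf2bp2, Igf2bp3 and Nr6a1 in cells without and with an Mki67 read in each line, with 95% Poisson intervals that cover counting error only. The order of the lines is kept in both classes, and the XN4 values of Igf2bp2 (93.9 to 51.7) and Nr6a1 (60.2 to 35.0) slope down.

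Whether the genes met in the same cells was read from pairs. The number of cells with both genes was divided by the number expected if they were captured independently within 20 groups of cells of like depth. Doublets were not removed, and their part in these ratios was not tested. The ratio exceeded 1 beyond its counting interval for 9 of 27 pairs in XN4, 4 of 11 in XN1, 0 of 20 in KN1 and 6 of 30 in CN4, and it lay below 1 beyond the interval for none. These counts rest on unequal numbers of cells, since KN1 was read from the 3975 cells of its normalized table, XN4 from all 8741 cells, XN1 from 14452 and CN4 from 18157. In the cells of the normalized tables, the ratio exceeded 1 beyond the interval for 6 of 25 pairs in XN4, 1 of 7 in XN1 (Hmga1 with Hmga2) and 0 of 21 in CN4, so at like numbers of cells KN1 and CN4 both had none.

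In XN4, Hmga1 and Hmga2 were found together in 321 cells where 158 were expected, a ratio of 2.03 (1.82 to 2.27). Igf2bp2 and Igf2bp3 shared 625 cells where 340 were expected (1.84, 1.70 to 1.99), Hmga1 and Igf2bp2 shared 211 where 121 were expected (1.74), and Hmga2 and Igf2bp2 shared 702 where 463 were expected (1.52, 1.41 to 1.63). Pairs with Nr6a1 stayed near 1, with 1.07 for Hmga2, 1.11 (1.00 to 1.22) for Igf2bp2 and 1.02 for Igf2bp3. Pairs among Hmga1, Hmga2 and Igf2bp2 and the pair of Igf2bp2 and Igf2bp3 thus met in the same XN4 cells more often than independent capture gives.

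XN1, where the same genes were rare, gave 1.85 (1.45 to 2.33) for Hmga1 with Hmga2, from 72 cells, and 2.39 (1.56 to 3.50) for Hmga1 with Igf2bp2, from 26 cells. In KN1 the ratio for Hmga2 with Igf2bp2 was 1.04 (0.957 to 1.13) and for Igf2bp2 with Igf2bp3 1.03 (0.907 to 1.17). In CN4 the ratios for Hmga2 with Igf2bp2 and Igf2bp2 with Igf2bp3 were 1.03 and 1.02. The highest CN4 ratios were 1.59 (1.02 to 2.37) for Lin28b with Nr6a1, from 24 cells, and 1.58 (1.19 to 2.05) for Trim71 with Igf2bp1, from 55 cells, and the other 4 that exceeded 1 beyond their intervals were 1.02 to 1.07. The ratio cannot exceed 1.35 for Hmga2 with Igf2bp2 and 1.48 for Igf2bp2 with Igf2bp3 in CN4, since most cells hold them, whereas 3.57 was possible for the second pair in KN1. Lin28b in KN1 gave ratios of 1.00 (0.904 to 1.11) with Hmga2, 1.02 with Igf2bp2 and 1.03 with Igf2bp3.

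**Figure D5:**
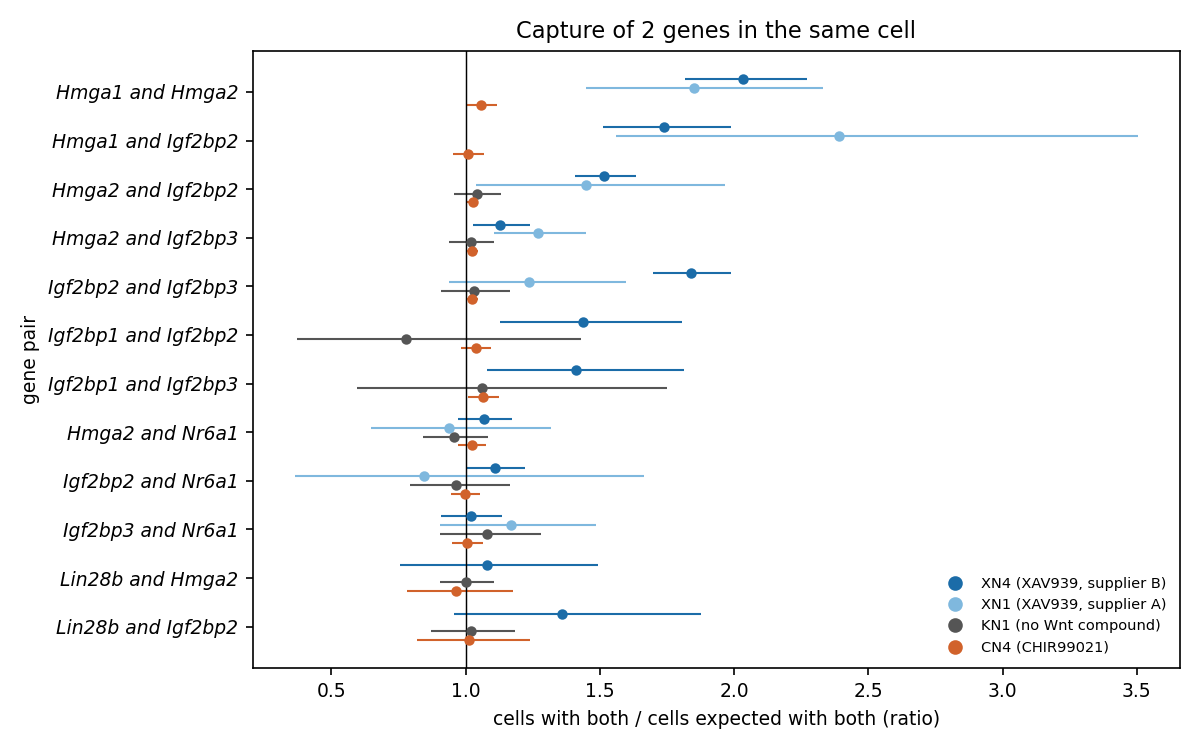
Cells that captured both genes of a pair divided by the cells expected to (horizontal axis; 1 means independent within groups of like depth), by line, with 95% Poisson intervals; pairs with under 5 expected cells have no point. XN4 points for Hmga1 and Hmga2 (2.03) and for Igf2bp2 and Igf2bp3 (1.84) lie right of 1, and all KN1 intervals include 1.

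The genes whose levels over the 4 lines were most like those of a member were found among 10708 genes by the distance between mean-centred log2 profiles, over 4 points that share these libraries. For Igf2bp2 the nearest of all was Hmga2 (distance 0.91), followed by Srgap3 (1.06) and Gnao1 (1.07). The nearest to Hmga2 were Kcnd2 (0.52), Mmp16 (0.61) and Nexmif (0.68). The nearest to Lin28b were Gm45881 (0.61), Cacna1d (0.79) and Kcnb2 (0.92), of which Cacna1d had 402 RPM in KN1 and 1.30 to 4.49 elsewhere. The nearest to Igf2bp3 were Tmem178b (0.44), Csmd1 (0.46) and Zfp462 (0.54), and to Nr6a1 Tanc2 (0.45), Cdyl2 (0.47) and Ltbp1 (0.48). Genes within a distance of 1 numbered 1 for Igf2bp2, 3 for Lin28b, 7 for Hmga2, 40 for Igf2bp3 and 70 for Nr6a1. Long genes were generally higher in KN1, and the part of gene span in these likenesses was not tested.

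The genes that make or destroy let-7 were compared in the same way. Of 11 genes for let-7 biogenesis and decay, 0 passed 2-fold between CN4 and XN1 (6.49% of all genes higher and 7.78% lower) and 0 between CN4 and XN4 (13.8% and 15.6%). In XN1 against XN4, 2 were lower and 0 higher (15.3% and 12.7% of all genes). KN1 had 4 higher than XN1 and none lower (22.9% and 22.8%), with a list median of 0.69 against -0.03 for all genes. It had 1 higher and 1 lower than XN4 (19.8% and 22.1%), and 2 higher and 1 lower than CN4 (19.3% and 21.5%). In a list of 11 genes none of these counts is read as a result. The 4 higher in KN1 than in XN1 lay slightly above the share over all genes, and the other counts lay near or below it.

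The exonuclease gene Dis3l2, which degrades let-7 precursors marked by LIN28, varied the most, with 380 RPM in KN1 and 68.6, 21.8 and 34.4 in XN4, XN1 and CN4. The terminal uridyltransferase gene Tut4, which adds that mark, stood at 328 in KN1, 218 in XN4, 122 in CN4 and 93.1 in XN1. Tarbp2, a Dicer partner, stood at 41.2, 22.7, 20.5 and 14.9 in the same order. The longest span group of all genes had medians of 1.49, 1.75 and 1.65 in KN1 against XN4, XN1 and CN4. The part of gene span in the levels of these let-7 decay and biogenesis genes was not tested.

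Other known let-7 targets did not share 1 order. Of 18 listed, 7 of 14 compared were higher and 1 lower in CN4 than in XN4, where 13.8% and 15.6% of all genes were, with a median of 1.01 against 0.01 for all genes. In CN4 against XN1, 3 of 13 were higher and none lower (6.49% and 7.78% of all genes). In XN1 against XN4, 4 of 14 were higher and 2 lower (12.7% and 15.3%). KN1 against CN4 had 3 of 13 higher and 6 lower (19.3% and 21.5%). The counts of KN1 against XN1, 4 of 13 in each direction (22.9% and 22.8%), and against XN4, 3 of 14 higher and 2 lower (19.8% and 22.1%), lay near the shares over all genes. Thbs1, counted as lower in each comparison with XN4, entered only through XN4. Plagl2, counted as higher in CN4 than in XN1, entered only through CN4 (8.09 RPM in XN1).

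The cyclin gene Ccnd1 stood at 2499 RPM in XN1, 1344 in CN4, 279 in KN1 and 221 in XN4, so that it was highest in the line where Hmga2 and Igf2bp2 were lowest. Ccnd2 stood at 1367, 1999, 1523 and 180 in the same order. Thbs1, for a matrix glycoprotein, was at 382 in XN4 and 4.50 to 7.68 in the other lines.

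RNAs known to be bound by IGF2BP proteins also went in different directions. H19, an imprinted fetal RNA, stood at 259 RPM in XN4 and 4.66 in CN4 and was not listed in XN1 or KN1. Mapk4 was at 52.3 in KN1, 13.9 in CN4, 11.2 in XN1 and 0.63 in XN4, and Myc at 20.1, 86.5, 79.9 and 15.3. Of the 6 of 8 genes compared, KN1 had 2 higher and 4 lower than CN4 (19.3% and 21.5% of all genes), the same counts against XN1 (22.9% and 22.8%), and 1 higher and 3 lower against XN4 (19.8% and 22.1%). CN4 had none past 2-fold against XN1 (6.49% and 7.78%) and 2 of 7 higher and 2 lower against XN4 (13.8% and 15.6%), and XN1 had 2 higher and 1 lower than XN4 (12.7% and 15.3%). Mapk4 entered each comparison with XN4 only through the other line, and H19 entered CN4 against XN4 only through XN4.

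HMGA2 is known to hold down the Cdkn2a locus in young neural stem cells, partly through Junb. Of 5 genes of that axis, KN1 had 0 higher and 5 lower than XN1, 0 higher and 4 lower than CN4 and the same against XN4, where 22.8%, 21.5% and 22.1% of all genes were lower. Cdkn2b, at 5.88 RPM in KN1, entered these comparisons only through the other line, which in large part sets its direction. The list medians were -2.36, -1.34 and -1.63, against -0.03, -0.12 and -0.09 over all genes. CN4 had 2 lower than XN1 (Cdkn2a and Cdkn1a, with 7.78% of all genes lower) and 1 lower than XN4 (Junb, with 15.6%). XN1 had 2 higher than XN4 (Cdkn1a and Cdkn2a, with 12.7% of all genes higher) and 1 lower (Junb, with 15.3%).

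Cdkn2a, which encodes inhibitors of cell division, stood at 162 RPM in XN1, 77.7 in XN4, 61.2 in CN4 and 25.5 in KN1. XN1, lowest for Hmga2, was highest for Cdkn2a, and KN1, highest for Hmga2, was lowest. Junb stood at 60.2, 133, 35.3 and 10.9 in the same order. Bmi1, a Polycomb gene that represses the same locus, was also lowest in KN1, at 18.6 against 59.7 to 110. The shortest span group of all genes had medians of -0.55, -0.64 and -0.64 in KN1 against XN4, XN1 and CN4, and its part in these values was not tested.

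Genes of later progenitors and glia were mixed. Of 8, XN1 had 3 higher and 2 lower than XN4 (12.7% and 15.3% of all genes), and CN4 had 3 and 2 against XN4 (13.8% and 15.6%) and 2 and 1 against XN1 (6.49% and 7.78%). KN1 had 3 and 3 against XN4 (19.8% and 22.1%), 3 and 1 against XN1 (22.9% and 22.8%) and 2 and 3 against CN4 (19.3% and 21.5%). Slc1a3, the glial glutamate transporter, stood at 2724 RPM in KN1, 2552 in CN4, 922 in XN1 and 63.9 in XN4. Nr2f2 was at 88.0, 196, 106 and 603 in the same order, and Zbtb20 at 660, 286, 736 and 177.

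Of 10 posterior genes that act in the trunk, where NR6A1 is known to act, CN4 listed 7, KN1 4 and both XN4 and XN1 only Gdf11. Gdf11, which ends trunk formation, stood at 88.0 RPM in XN1, 53.4 in XN4, 45.7 in CN4 and 25.4 in KN1, and it passed 2-fold only as lower in KN1 than in XN4 and XN1. The Cdx genes were not listed in any line. Hoxb8 stood at 343 RPM in CN4 and 121 in KN1, Hoxb9 at 333 and 40.0, and Hoxc8 at 297 and 2.32. CN4 alone listed Hoxc9 (30.6 RPM), Hoxa10 (7.32) and Hoxc10 (0.959). Of 4 genes compared, these 3 shared Hox genes were lower in KN1 than in CN4, where 21.5% of all genes were. Hoxc8 entered only through CN4, which in large part sets its direction.

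Genes of dividing cells were higher in CN4 than in XN4 along with Igf2bp1, Igf2bp2 and Igf2bp3. Of 12 G2 and M phase genes, 9 were higher in CN4 than in XN4 (13.8% of all genes) and 2 higher than in XN1 (6.49%), with none lower. KN1 had 2 higher than XN4 (19.8%), 1 higher than XN1 (22.9%), and 6 lower than CN4 (21.5%). None passed between XN1 and XN4. Cenpf stood at 119, 178, 459 and 331 RPM in XN4, XN1, KN1 and CN4, Hmgb2 at 452, 372, 253 and 908, and Cdk1 at 127, 142, 81.5 and 267. Of 11 S phase genes, 9 were higher in CN4 than in XN4 and 6 higher than in XN1, and 6 were lower in KN1 than in CN4, against the same shares of all genes. Below the shares over all genes were the 1 higher in KN1 than in XN4 (19.8%), the 1 lower in KN1 than in XN1 (22.8%) and the 1 higher in XN1 than in XN4 (12.7%). Pcna stood at 110, 158, 56.5 and 409, Mcm4 at 70.5, 70.9, 36.4 and 183, and Rrm2 at 45.9, 118, 75.9 and 215. Left with the cells that had no Mki67 read, CN4 had 4 of 5 members at least 2-fold above XN1, where 8.34% of all genes were, and 3 of 7 above XN4, where 15.6% were. In the same cells 2 of the 7 were lower in CN4 than in XN4, where 16.2% of all genes were.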

How the data were processed

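Each of the 4 NSC lines was 1 BD Rhapsody whole-transcriptome library. Per the file headers and the study's methods, the authors made the tables of all reads with the BD Rhapsody WTA Analysis Pipeline 1.12.1 (GRCm38, GENCODE M19, intronic reads kept, putative cells called), and their values are raw read counts per gene and cell. The authors deposited normalized tables as the natural log of 1 plus 10000 times a gene's share of the cell's reads, made with Seurat 4.3.0 (submitters' processing notes), without ribosomal protein and mitochondrial genes. The latter were turned back into whole reads (tolerance 0.01 of a read), which equalled the raw counts at all positions compared in XN4, XN1 and CN4 (0 differences). The study's methods name the same pipeline and genome for all 4 lines. For KN1, its version, annotation and handling of intronic reads are not given in the sources used here. Whether counting used strand is not given either.

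Reads were summed per line and scaled to reads per 1000000 reads (RPM). No cell was left out and no doublet caller was run, so doublets remain among the cells. Ratios between lines used log2(RPM + 1) over genes with at least 10 RPM in either line, and 2-fold was the limit for counting a gene as different. Thinned shares are expectations at 3200 reads a cell. Pairs were given where at least 5 cells were expected. The named genes were all 9 members, the 3 genes of each list with the widest range over lines, and the 3 genes nearest to each member listed in all 4 normalized tables. The genes named besides, within list counts, were chosen after their values were seen. Members and lists were chosen with earlier results of these data known. Gene spans and positions came from GENCODE M21 (GRCm38), which covered 99.7% of genes tested. The scripts, run with Python, NumPy and SciPy, were tested on simulated data. The alternatives tried were other pseudocounts, filters, scalings, cell sets and depth groups.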

Additional observations from a re-analysis of the deposited data

Results flagged for a closer look

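Reads were also counted to 2 genes that are no members but share sequence or a locus with one, and they were above the limit of 3 counts in the tables that list them. Hmga1b, the near-identical copy of Hmga1, stood at 1.95 RPM in XN4, 0.472 in KN1 and 1.39 in CN4, and the normalized table of XN1 did not list it. Its KN1 share, 0.277% of cells, lay within the Pou5f1 range and is not read as expression. Nr6a1os, antisense within Nr6a1, stood at 152 RPM in KN1, 26.0 in CN4, 20.8 in XN4 and 5.55 in XN1. That order differs from KN1, XN4, CN4 and XN1 for Nr6a1.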

How the results depend on the processing

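No paired analysis was possible because each line is 1 library. No difference of at least 2-fold between lines turned its direction under any alternative run. Counts of members past 2-fold kept within 1.5 times, except as follows. Of the 2 members lower in CN4 than in XN4, 0 passed with a pseudocount of 10 and 0 in cells at or below the median Malat1 share, and 1 passed in the tables of all reads and 1 after centring on genes of like span. In the Malat1 and all-reads settings 6 members could be compared in place of 7, because Trim71 was under 10 RPM in both lines there (8.95 in XN4 and 2.34 in CN4 with less Malat1). The 1 member lower in KN1 than in CN4 (Igf2bp1) gave 0 with a pseudocount of 10 and 0 without cells that had an Mki67 read. The 4 members higher in KN1 than in CN4 became 2 after centring on genes of like span, with Lin28b and Trim71 left. Over all genes, 351 were higher and 509 lower in CN4 than in XN1 with a pseudocount of 10, against 654 and 784 with 1. The cause of the other changes was not tested. Centring on like span, the split by Malat1 and the sums with Hmga1b or Nr6a1os were chosen after seeing the data. For pairs, 1 depth group in place of 20 moved 39 of 86 ratios beyond their intervals, among them Hmga1 with Hmga2 in XN4 from 2.03 to 4.22, while 5 groups moved 1 of 88 and 50 groups moved 0. Counting capture from at least 2 reads moved 13 of 59 ratios, and the cells of the normalized tables moved 5 of 53. Of 22 RPM values, 17 left their counting intervals in the tables of all reads, where they were lower, by up to 1.53 times (Igf2bp3 in XN4). Shares of cells depend on depth: at 3200 reads a cell 27 of 29 shares left their intervals.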
